A study of Mus musculus with 4 samples.

Results

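DNA replication licensing and fork genes were followed across the 4 ribosome profiling libraries as a list of 47 genes. The list was taken by name and holds the origin recognition complex, Cdc6, Cdt1 and geminin, the Mcm2-7 helicase, its activators, the sliding clamp and its loader, the single-strand binding protein RPA, the replicative polymerases with primase, the flap endonuclease and ligase, the enzymes of nucleotide supply, and Uhrf1. All 47 genes had a row in the gene table of 30694 genes, and 29 of them had an annotated open reading frame (ORF) in the table of 4669 ORFs. No value of these libraries entered the rule, but the list was chosen with earlier results of the same data known.

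Replication starts in 2 separate steps in every dividing cell. In licensing, the origin recognition complex, Cdc6 and Cdt1 load the ring-shaped Mcm2-7 helicase onto DNA, and geminin, the product of Gmnn, blocks Cdt1 so that no origin is licensed again in the same cycle. In firing, the kinase Cdc7 with its partner Dbf4 lets Cdc45 and the GINS complex join the helicase, after which polymerase alpha with primase makes the primer, the clamp loader RFC puts the clamp PCNA on it, and polymerases delta and epsilon copy the strands. Many of these genes are known targets of the E2F transcription factors, and their products are abundant in proliferating cells such as stem cells in culture.

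Ribosome footprints came from FGSCs, female germline stem cells grown as a mouse cell line from the ovary. The 2 shNC libraries came from cells of the control hairpin group, and the 2 shGm26917 libraries from cells infected with lentivirus carrying a hairpin against the long noncoding RNA Gm26917. The labels name no further treatment, clone or age, and nothing in them says whether the replicates were separate infections, so p-values measure only the spread between these libraries. Values below are given in the order shNC replicate 1, shNC replicate 2, shGm26917 replicate 1, shGm26917 replicate 2.

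Translation efficiency (TE) is the ratio of the normalized footprint value of a gene to its normalized RNA value, so it says how many footprints a gene has for its RNA and not how much protein is made. The depth behind a TE is unknown. The ORF values stood for 157914 to 1753036 whole reads per library, lowest in shGm26917 replicate 1, where 372 ORFs were above 0 against 3421 to 4250 in the other libraries. The TE columns of the 2 shGm26917 libraries were blank for exactly the same 5608 genes, and 44.6% of genes above 0 in both had a replicate 1 to replicate 2 ratio that another gene shared to 7 digits, against 7.94% for the 2 shNC libraries. Ratios to a common RNA value would look like this, and the spread between the shGm26917 replicates would then hold no RNA error; which RNA libraries went into which column is not stated. Gm26917 itself had a TE of 17.0, 23.8, 113 and 8.62, a ratio that holds no RNA level of its own, and how far Gm26917 was knocked down was not analysed here.

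Of 14 germline marker genes, 10 were analysed here, and Dazl, Dppa3, Sall4 and Tfap2c had no TE listed. A TE above 0 was found for 6, 7, 3 and 5 of the 10 in the 4 libraries, and for 3 in every library. The 3 were Ifitm3, Gfra1 and Kit, and the ORF of Ifitm3 had a footprint value of 1111, 797, 0 and 799. Etv5, Nanos3, Prdm1 and Zbtb16 had a TE above 0 in some libraries only. Ddx4, Pou5f1 and Lin28a, which define germ cells or their precursors, were listed at 0 or blank in all 4. The paper reported Ddx4 and Oct4 (Pou5f1) in its FGSCs by RT-PCR and by immunofluorescence, which are other measures than TE. All 6 stromal markers analysed had a TE above 0 in all 4 libraries, and their 6 ORFs summed to a footprint value of 4126, 4437, 677 and 3093. The granulosa list had 1 and the macrophage list 4 genes above 0 in all libraries, and the 4 endothelial genes were at 0 in shGm26917 replicate 1 only. All 5 proliferation markers had a TE above 0 in all libraries, and the ORFs of Mki67 and Top2a summed to 3576, 4120, 0 and 3607. How far the makeup of the culture enters the replication gene values was not tested, and in bulk cells fewer cells of a type and less RNA per cell cannot be told apart.

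Many promoters of these genes hold a sequence feature that the list did not use. RefSeq windows of 250 bases before to 50 bases after a gene's start (build GRCm38.p6) were at hand for 39 of the 47 genes. An E2F-type motif, searched on both strands as TTTCCCGC, TTTCGCGC, TTTGCCGC or TTTGGCGC, was found in the windows of 15 of 39 genes (38.5%), against 5.39% of the 7879 TE-tested genes with a window and 2.60% of all 27025 genes with one. The CCAAT box, the letters bound by NF-Y, was found in 24 of 39 (61.5%), against 42.7% of the TE-tested genes. Motif letters in a window are a description and not a bound site. Mcm6 had 3 E2F-type matches before its start, and its stretch below shows 1 of them. The following 30-base stretches, 5′ to 3′ on the gene's strand with the motif in capitals, are shown because they are the 4 of 10 genes with a match before the start whose stretch also lies outside the gene's span in the TE table; in Mcm5 a pair of overlapping matches, TTTCGCGC and TTTGGCGC on the opposite strand, makes the longer run of capitals.
Mcm5 (chr8:75109349-75109378, + strand): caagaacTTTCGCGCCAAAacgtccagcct
Mcm6 (chr1:128359734-128359763, - strand): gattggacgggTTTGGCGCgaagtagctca
Orc3 (chr4:34614965-34614994, - strand): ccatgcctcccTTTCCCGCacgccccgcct
Pola1 (chrX:93632275-93632304, - strand): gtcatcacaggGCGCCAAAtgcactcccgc

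Replication genes sat a little above the middle of the TE range. Over the 44 genes with a TE above 0 in all libraries, the median TE was 1.29, 1.45, 0.855 and 1.39, while the median of the 10115 genes tested was 0.993, 0.990, 0.992 and 1.00. The replication genes were thus above the median of tested genes in 3 libraries and below it in shGm26917 replicate 1. In shNC replicate 1 the list ran from Cdc7 at 0.292 (percentile 13.0 among genes above 0) to Fen1 at 8.65 (percentile 97.1). The 3 genes at 0 in a library, Cdc7, Gins3 and Fen1, were at 0 in shGm26917 replicate 1 alone, and they stayed out of the test of genes above 0 in every library.

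**Figure D1:**
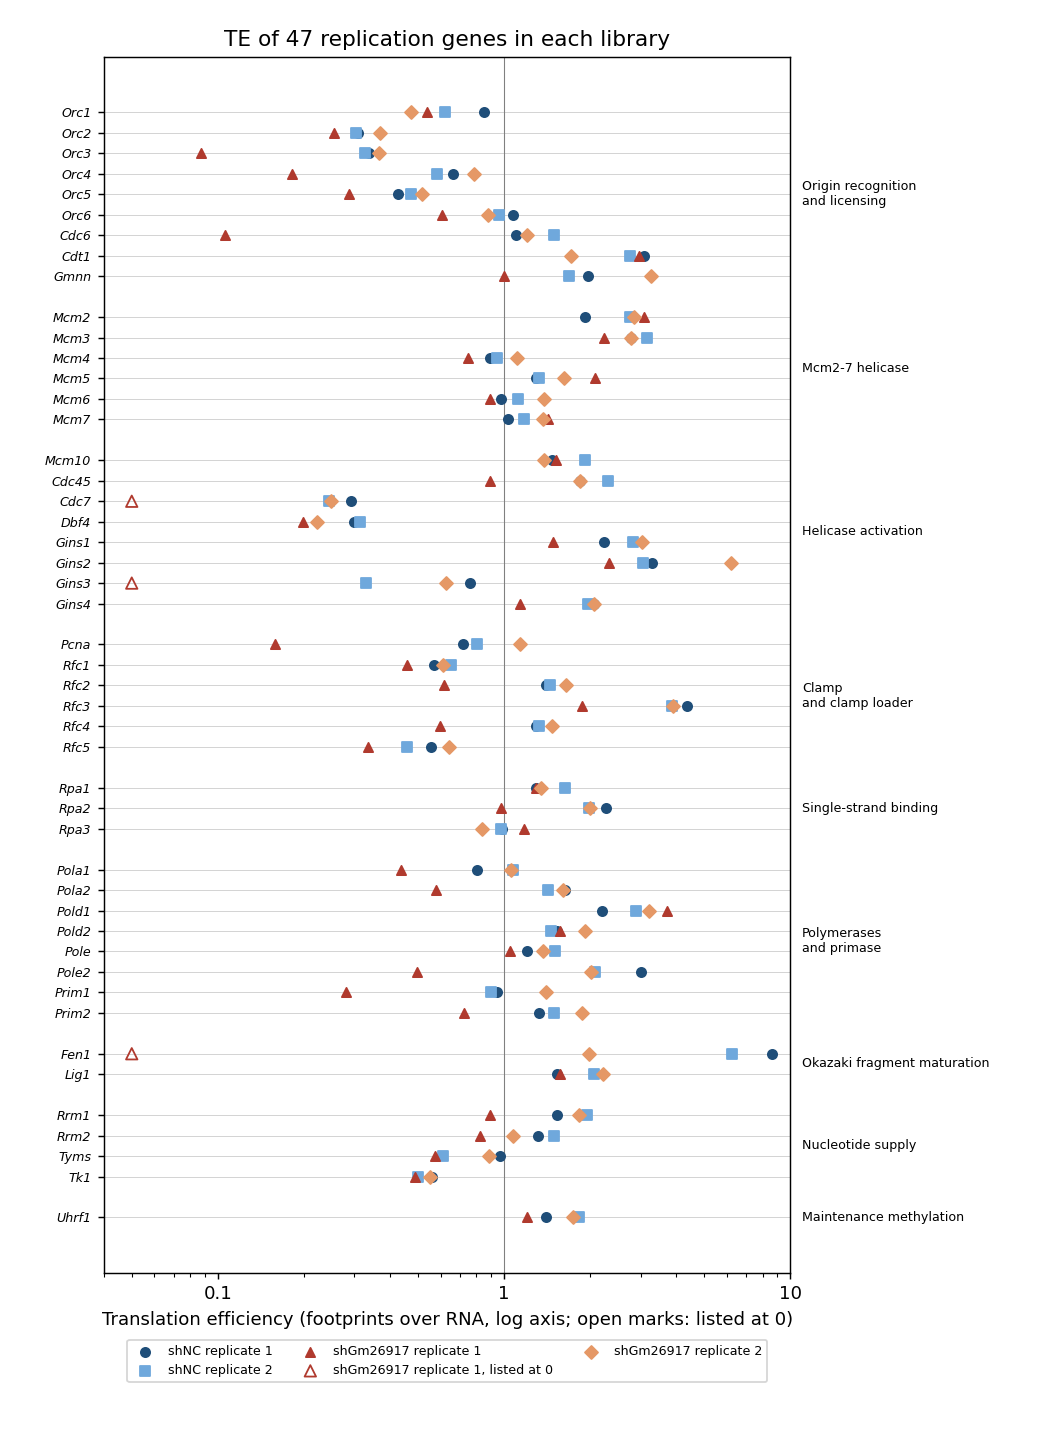
TE of the 47 replication genes (x axis, footprints over RNA, log scale) in each library, with genes on the y axis grouped by role and open triangles for genes listed at 0. The dark red triangles of shGm26917 replicate 1 lie left of all other marks for 33 of the 44 genes above 0 in every library.

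The comparison asked which replication genes gained or lost ribosomes per RNA after knockdown of Gm26917. No replication gene passed the test. With limma on log2(TE), 0 of the 10115 genes were called at an adjusted p under 0.05 (percent called 0), while 219 were under 0.05 before adjustment. The study's threshold was a change of 1.5-fold or more with a p no greater than 0.05. Whether that p was adjusted is not stated, and it was taken here as unadjusted. By that threshold 87 genes were lower (0.86%) and 132 higher (1.3%) in shGm26917. None of the 44 replication genes, 0 in all, was among them. The smallest unadjusted p in the list was 0.136, with a limma adjusted p = 0.965.

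Without overlap between the groups, 6 of 44 replication genes were lower in both shGm26917 libraries (13.6%, against 14.8% of all genes tested) and 5 of 44 were higher (11.4%, against 16.1%). Both shares were close to or under the background. The lower genes were Orc1, Orc6, Mcm3, Dbf4, Pole2 and Rrm2. The higher genes were Mcm2, Mcm5, Mcm7, Pold1 and Pold2.

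The median log2 change of the 44 genes was -0.25, against 0.00 for all genes tested, and 34 of them were negative. The sign of that median differed between the 2 shGm26917 libraries. Relative to the mean log2 TE of the shNC libraries, replicate 1 had a median of -0.61 over the replication genes (0.01 over all genes) with 37 of 44 below 0 (84.1%, against 49.7% of all genes). Replicate 2 had a median of 0.15 (0.02 over all genes) with 14 of 44 below 0 (31.8%, against 47.4%). The 2 shGm26917 libraries therefore lay on opposite sides of shNC for the list, and 25 of 44 genes (56.8%, against 25.9% of all genes) were below shNC in replicate 1 and above it in replicate 2. Replicate 1 was lower than all 3 other libraries for 33 of 44 genes (75.0%, against 38.7% of all genes).

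The spread between the shGm26917 libraries was as wide over all genes as over the replication genes, while its direction was not. The median absolute log2 difference between replicates was 0.70 for replication genes and 0.65 for all genes in shGm26917, and 0.19 and 0.26 in shNC. The signed median of replicate 1 over replicate 2 was -0.62 for the replication genes and -0.01 for all genes. Across the 44 genes, Pearson's r between shGm26917 replicate 1 and another library was 0.719 to 0.771 on log2 TE, and among the other 3 it was 0.920 to 0.957, as a description over genes that share a library. Over all genes the same values were 0.772 to 0.783 and 0.921 to 0.935. Across 28 replication genes with an annotated ORF, the replicate 1 over replicate 2 difference had a Spearman rho of 0.29 with ORF length, and it was 0.05 across 4113 genes.

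**Figure D2:**
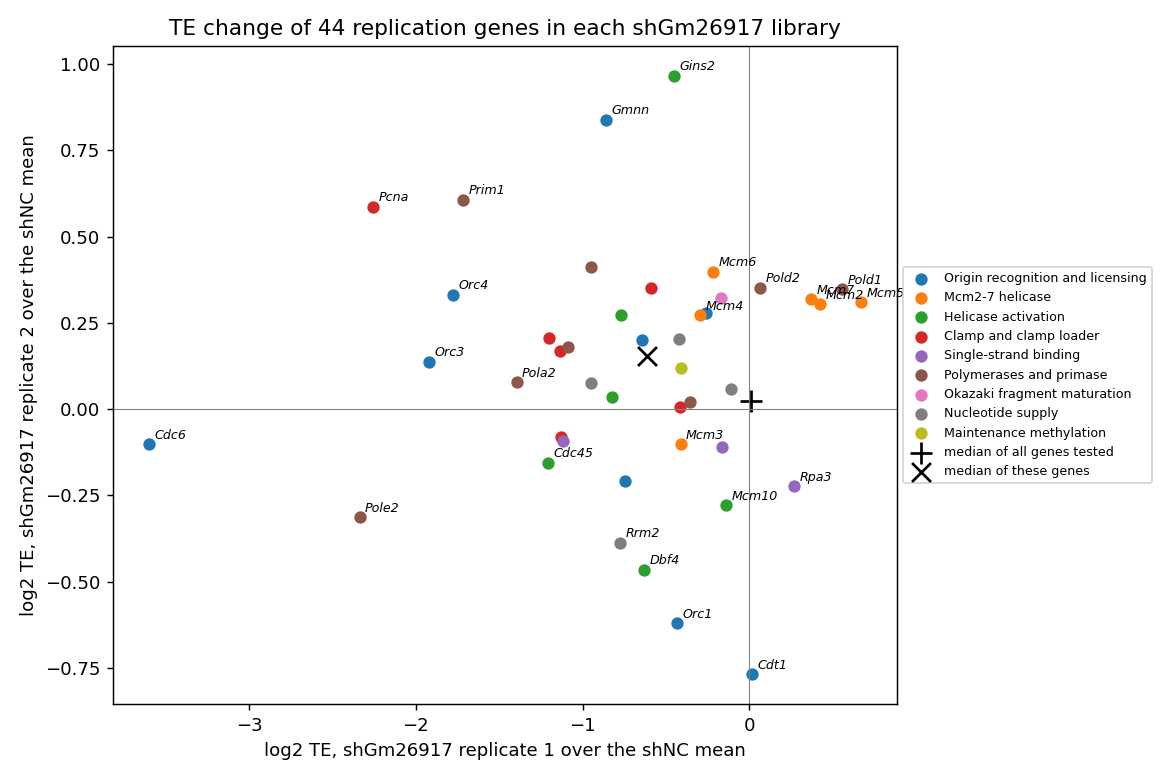
Log2 TE of 44 replication genes in shGm26917 replicate 1 (x axis) and replicate 2 (y axis), each relative to the mean log2 TE of the shNC libraries, coloured by role; the plus and the cross are the medians of all genes tested and of these genes. 25 genes sit in the upper left, below shNC in replicate 1 and above it in replicate 2, and 5 sit in the upper right.

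The sign of the list's median turned when shGm26917 replicate 1 was left out, and not when replicate 2 was. Without replicate 1 the median log2 change of the list was 0.15, and 3 genes were at the study's threshold, Gins2 and Gmnn higher (1.97% of all genes were higher there) and Cdt1 lower (3.77% lower). Without replicate 2 the median was -0.61, and 19 of 44 genes were at the study's threshold, all lower, where 17.8% of all genes were lower. Cdc6, Pcna, Pole2, Prim1 and Orc4 then had a limma adjusted p of 0.038 to 0.050, with 5.76% of all genes called, and the lone shGm26917 library was assumed to vary like the shNC pair.

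Among the origin and licensing genes, the subunits of the origin recognition complex were mostly of low TE. Orc2, Orc3 and Orc5 were between 0.303 and 0.472 in the shNC libraries, and Orc4 was 0.660 and 0.585. Orc1 (chr4:108579423-108614833 in mm10), an ATPase subunit of the complex, had a TE of 0.850, 0.620, 0.538 and 0.472, with both shGm26917 libraries under both shNC libraries. Its log2 change was -0.53 (SE 0.35, limma adjusted p = 0.965). Orc6, the smallest subunit, had 1.07, 0.962, 0.607 and 0.880, again without overlap, and a log2 change of -0.48 (SE 0.35, limma adjusted p = 0.965). The gap between the groups was small beside the shGm26917 spread in Orc6, where replicate 2 was nearer to shNC than to replicate 1.

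Orc3 and Orc4 showed the split between the shGm26917 libraries. Orc3 had a TE of 0.337, 0.328, 0.0876 and 0.365. Orc4 had 0.660, 0.585, 0.181 and 0.782. In both genes replicate 1 was 4.17- and 4.32-fold under replicate 2, while replicate 2 was the highest of the 4 libraries. Orc2 (0.308, 0.303, 0.254 and 0.370) and Orc5 (0.426, 0.472, 0.287 and 0.516) also had replicate 1 lowest and replicate 2 highest, with smaller gaps.

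Cdc6 (chr11:98907801-98923940), the ATPase that joins the origin complex to load the helicase, had the widest gap between the shGm26917 libraries among the 44 tested genes, at 11.3-fold. Its TE was 1.10, 1.497, 0.106 and 1.20, so shGm26917 replicate 2 lay within the shNC range and replicate 1 at 8.14% of the shNC mean. The log2 change was -1.85 with an SE of 1.19 (limma adjusted p = 0.965). Cdt1, the helicase loader, went the other way between replicates, with 3.09, 2.76, 2.96 and 1.71. Its inhibitor geminin (Gmnn) had 1.96, 1.68, 1.00 and 3.25. In shGm26917 replicate 2, Cdt1 was therefore the lowest and geminin the highest of their 4 values, and in replicate 1 Cdt1 was within the shNC range and geminin lowest.

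The Mcm2-7 subunits form a single ring with 1 copy of each, and their TE differed by 2.56- to 4.12-fold within a library. In all 4 libraries Mcm2 and Mcm3 were the highest pair and Mcm4 the lowest, with Mcm3 on top in the shNC libraries and Mcm2 on top in the shGm26917 libraries. Mcm2 (chr6:88883474-88898780) had a TE of 1.91, 2.76, 3.08 and 2.83, and Mcm3 had 2.78, 3.16, 2.23 and 2.76. The Mcm2 values of shGm26917 lay above both shNC values, the lower by less than the gap between the shNC libraries.

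Mcm5 (chr8:75109569-75128439) had the largest log2 change of the helicase, with TE values of 1.29, 1.33, 2.08 and 1.62 and a log2 change of 0.49 (SE 0.31). Mcm7 had 1.03, 1.18, 1.42 and 1.37 and a log2 change of 0.34 (SE 0.30). Both were higher in each shGm26917 library than in each shNC library, and the log2 change of Mcm2 was 0.36 (SE 0.33). Mcm3 was lower without overlap, by a log2 change of -0.26 (SE 0.31). The limma adjusted p was 0.965 for each of these 4 subunits. The remaining pair overlapped between groups. Mcm4 had 0.891, 0.944, 0.747 and 1.11 (log2 change -0.01, SE 0.35, limma adjusted p = 0.997), and Mcm6 had 0.973, 1.11, 0.896 and 1.37 (log2 change 0.09, SE 0.36, limma adjusted p = 0.980). In these 2, shGm26917 replicate 1 was the lowest and replicate 2 the highest library. The helicase was the only role with a positive median log2 change and more than 1 gene tested, at 0.22 over its 6 subunits, and the direction of Mcm4 turned with scaling (0.01 after quantile normalization).

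**Figure D3:**
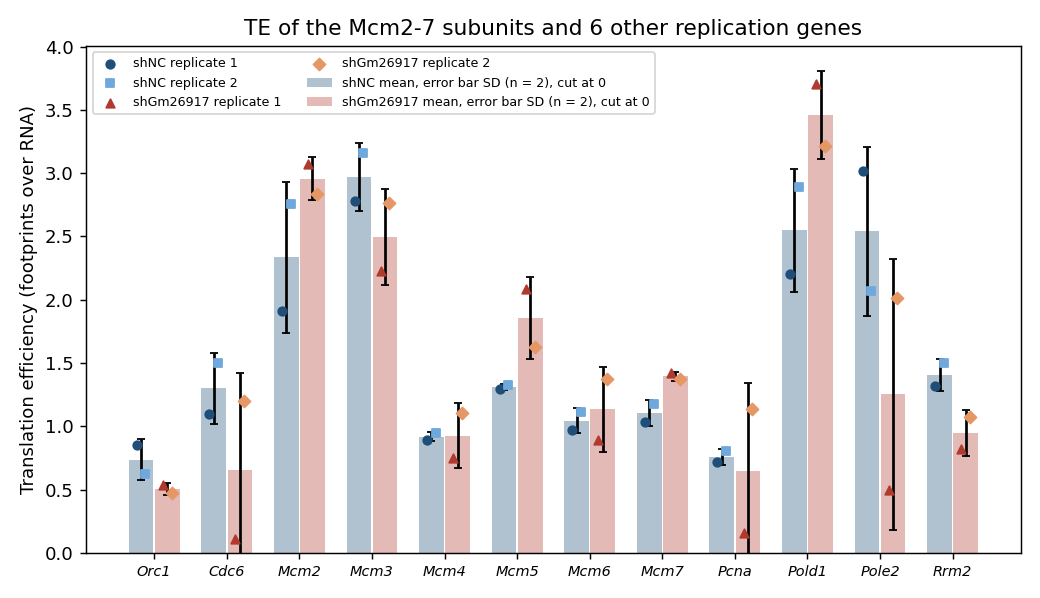
TE (y axis, footprints over RNA, from 0) of the 6 Mcm2-7 subunits and 6 other replication genes; bars are group means, error bars the SD of 2 libraries cut off at 0, and marks the single libraries. The Mcm2, Mcm5, Mcm7 and Pold1 marks of shGm26917 lie above both shNC marks, and the Cdc6, Pcna and Pole2 marks of shGm26917 lie far apart.

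Among the helicase activators, Cdc7 and Dbf4, the kinase and its regulatory subunit, had some of the lowest TE in the list. Dbf4 (chr5:8396973-8422716) had 0.299, 0.314, 0.198 and 0.222, so the groups did not overlap and the replicates were close. Its log2 change was -0.55 (SE 0.37, limma adjusted p = 0.965). Cdc7 had 0.292, 0.245, 0 and 0.248, and shGm26917 replicate 2 lay within the shNC range. The kinase and its partner therefore had TE values of like size in the shNC libraries, and only Dbf4 was below shNC in replicate 2.

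Cdc45, which joins the helicase at firing, had 1.83, 2.30, 0.890 and 1.84 (log2 change -0.68, SE 0.46, limma adjusted p = 0.965), with replicate 2 just inside the shNC range. Mcm10, which helps the activated helicase, had 1.47, 1.92, 1.52 and 1.38, all close together. The 4 GINS subunits differed among themselves. Gins2 had 3.28, 3.05, 2.32 and 6.18, the highest TE of the list in shGm26917 replicate 2, while Gins3 had 0.761, 0.329, 0 and 0.626. Gins1 (2.23, 2.83, 1.48 and 3.04) and Gins4 (2.06, 1.96, 1.14 and 2.06) were lowest in replicate 1.

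Pcna (chr2:132249162-132253314), the sliding clamp, had a TE of 0.716, 0.803, 0.159 and 1.14. The shNC libraries were close, shGm26917 replicate 1 was the lowest and replicate 2 the highest, and the gap between the shGm26917 libraries was 7.18-fold. The log2 change was -0.84 with an SE of 0.98 (limma adjusted p = 0.965), and without replicate 1 it was 0.59. The clamp loader subunits all had replicate 1 as the lowest library. Rfc3 had the highest TE of the loader, with 4.35, 3.85, 1.87 and 3.88 (log2 change -0.61, SE 0.45, limma adjusted p = 0.965). Rfc2 (1.40, 1.44, 0.618 and 1.64) and Rfc4 (1.29, 1.32, 0.595 and 1.47) kept close to each other in every library, and Rfc1 and Rfc5 lay between 0.333 and 0.654.

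The RPA subunits, which coat single-stranded DNA, behaved differently from each other. Rpa2 had 2.27, 1.99, 0.977 and 1.99 (log2 change -0.61, SE 0.44, limma adjusted p = 0.965). Rpa1 had 1.295, 1.63, 1.295 and 1.35, with little between the libraries. Rpa3 had 0.983, 0.972, 1.18 and 0.837, and was highest in replicate 1. RPA is a trimer with 1 copy of each subunit, and only Rpa2 was far under shNC in replicate 1.

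In polymerase delta, which copies the lagging strand, both listed subunits were higher without overlap, as were 16.1% of all genes tested. Pold1 (chr7:44532746-44548849), the catalytic subunit, had 2.20, 2.89, 3.71 and 3.21 (log2 change 0.45, SE 0.32, limma adjusted p = 0.965). Pold2, its B subunit, had 1.53, 1.46, 1.57 and 1.91, and its lowest shGm26917 value exceeded its highest shNC value by little. Among the 8 polymerase and primase genes, these were the 2 with replicate 1 above the shNC mean.

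In polymerase epsilon, which copies the leading strand, the subunits differed. Pole, the catalytic subunit, had 1.21, 1.501, 1.05 and 1.37. Pole2 (chr12:69201773-69228195), the B subunit, had 3.02, 2.07, 0.494 and 2.01 (log2 change -1.33, SE 0.74, limma adjusted p = 0.965). Pole2 did not overlap between the groups, but replicate 2 was only just under the lower shNC library. For polymerase alpha, which extends the primer, Pola1 had 0.803, 1.07, 0.438 and 1.05, and Pola2 had 1.63, 1.42, 0.579 and 1.61 (log2 change -0.66, SE 0.56, limma adjusted p = 0.965). The primase subunits Prim1 (0.943, 0.896, 0.280 and 1.40) and Prim2 (1.33, 1.49, 0.727 and 1.87) had replicate 1 lowest and replicate 2 highest.

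Fen1 (chr19:10199132-10204169), the flap endonuclease of Okazaki fragments, had the highest TE of the list in both shNC libraries and lay far lower in both shGm26917 libraries, at 8.65, 6.23, 0 and 1.98. The 0 kept it out of the test of genes above 0 in every library. In 2 alternatives that took it in, given here after its values were seen, its log2 change was -5.70 with a pseudocount of 0.01 (p 0.139, limma adjusted p = 0.949) and -1.89 without shGm26917 replicate 1, among genes above 0 in the 3 other libraries (p 0.00975, limma adjusted p = 0.765). In the latter Fen1 was at the study's threshold and not past the adjusted test, and the lone shGm26917 library was assumed to vary like the shNC pair. Lig1, the ligase that seals the fragments, had 1.52, 2.05, 1.57 and 2.21, with groups that overlapped. Of the nucleotide supply genes, Rrm2 (chr12:24708241-24714146), the small subunit of ribonucleotide reductase, had 1.32, 1.497, 0.821 and 1.07, without overlap (log2 change -0.58, SE 0.32, limma adjusted p = 0.965). Its partner Rrm1 had 1.53, 1.95, 0.895 and 1.82. Tyms and Tk1, which make thymidine nucleotides, lay between 0.489 and 0.970 with groups that overlapped. Uhrf1, which brings the maintenance methyltransferase to new DNA, had 1.40, 1.83, 1.21 and 1.74.

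By role, the median log2 TE of shGm26917 replicate 1 over shNC ran from -1.13 for the clamp and its loader and -1.02 for the polymerases and primase to 0.07 for the helicase. Origin and licensing genes had -0.74, helicase activators -0.70 and nucleotide supply -0.60. In replicate 2 the medians of all roles lay between -0.11 and 0.32, a narrower range. No test between roles was made.

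A further list of 49 replication genes, such as fork protection, chromatin assembly and primer removal factors, was set beside these. Of them 47 were tested, 0 passed the limma test or the study's threshold, 23 were negative and 24 positive, and the median log2 change was 0.05. Their median was -0.05 in replicate 1 and 0.13 in replicate 2, closer together than the -0.61 and 0.15 of the core list; the difference between the lists was not tested. The 3 with the smallest p on the lower side were Pole3, a histone-fold subunit of polymerase epsilon (0.896, 0.725, 0.103 and 0.628), Fbxo5, which restrains the anaphase-promoting complex (1.02, 0.902, 0.493 and 0.900), and Hells, a chromatin remodeller (0.412, 0.550, 0.251 and 0.449). On the higher side they were Asf1a, a histone chaperone (0.726, 0.528, 1.006 and 1.16), Lrwd1, a partner of the origin recognition complex (5.13, 3.68, 86.9 and 6.90), and Pold3, a polymerase delta subunit (0.514, 0.424, 0.809 and 0.554). Pold3 was 1 of 6 of these 47 genes that were higher without overlap, where 16.1% of all genes tested were.

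The ORF table gives the footprints themselves, scaled by library and not divided by RNA. Each of the 29 replication genes had 1 annotated ORF, and 26, 22, 3 and 27 of these were above 0 in the 4 libraries. In shGm26917 replicate 1, 26 were listed at 0, although 25 of those genes had a TE above 0 in the same library, so a 0 in this table does not mean that the gene had no footprints. Over all ORFs, 7.97% were above 0 in replicate 1 and 73.3% to 91.0% in the others, and the replication genes followed that pattern with 2 of 29 ORFs above 0 in all 4 libraries against 6.34% of all ORFs.

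Limma on log2(value + 1) called 0 of 4669 ORFs at an adjusted p under 0.05 (percent called 0), and 346 were under 0.05 before adjustment. At the study's threshold 336 ORFs were lower (7.2%) and 8 higher (0.171%), and the replication genes had 2 of 29, both lower. These were Lig1 (75.8, 143, 0 and 0) and Pold2 (279, 118, 0 and 0). They were also the only ORFs of the list above 0 in both shNC and at 0 in both shGm26917 libraries (8.37% of all ORFs were). Neither gene had a lower TE in shGm26917, since Pold2 was higher without overlap and Lig1 overlapped. On whole reads recovered from the values, edgeR's quasi-likelihood test called 0 ORFs at an adjusted p under 0.05 and DESeq2 called 3, with 0 replication genes in either.

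The ORFs of Mcm3 and Mcm5 were above 0 in all libraries. Mcm5 had 453, 388, 510 and 329, so the groups overlapped. Mcm3 had 51.3, 34.96, 971 and 148, higher in both shGm26917 libraries, with replicate 1 far from replicate 2 (log2 change 3.13, SE 2.21, limma adjusted p = 0.836). The TE of Mcm3 lay the other way, so the 2 readouts of this gene differed in direction, neither past the test. Cdt1 had 321, 0, 339 and 65.0.

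Several well covered ORFs had values in shGm26917 replicate 2 of the same order as in shNC. Mcm2 had the highest footprint value of the helicase in the 3 libraries that listed it, at 1339, 1486, 0 and 1103. Rrm1 had 1094, 1443, 0 and 874. Pcna had 339, 267, 0 and 368, and Fen1 had 205, 263, 0 and 259, so the ORF of Fen1 in replicate 2 was within the shNC range while its TE there was far lower. Rfc2 (80.6, 106, 0 and 896) and Cdc45 (14.2, 12.8, 0 and 268) stood out as far higher in replicate 2 than in either shNC library, with TE values in that library close to shNC.

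Per 100 codons, the helicase subunits covered a far wider range in ORF values than in TE. In shNC replicate 1, Mcm2 had 148, Mcm5 61.8, Mcm4 53.4, Mcm7 27.5, Mcm3 6.32 and Mcm6 0.385. The range was 385-fold in that library, 232-fold in shNC replicate 2 and 147-fold in shGm26917 replicate 2. Mcm6 rested on 4 whole reads in shNC replicate 1, although its TE was 0.973 there, so the ORF value of a subunit need not follow its footprints over the whole gene. The order of the 6 subunits was the same in these 3 libraries.

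For other complexes the same measure also differed between partners. In shNC replicate 1 the catalytic subunit Pola1 had 23.6 per 100 codons and Pola2 1.84. In shNC replicate 2 they had 25.9 and 0.777, and in shGm26917 replicate 2 they had 22.5 and 2.27. Pola1 was far above Pola2 in each, but Pola2 rested on only 14, 4 and 18 whole reads there. By TE, Pola2 was above Pola1 in every library. Pold2 and Pole belong to different polymerases, delta and epsilon. They had 59.4 and 14.7 in shNC replicate 1, 25.1 and 20.7 in shNC replicate 2, and 0 and 7.25 in shGm26917 replicate 2. In shNC replicate 1, Orc2 and Orc5 had 4.39 and 5.63, far under the helicase loader Cdt1 with 57.6 and its inhibitor Gmnn with 72.8. In shNC replicate 2, Orc2, Orc5 and Cdt1 were listed at 0, and in shGm26917 replicate 2 Cdt1 had 11.7. Of the GINS subunits, Gins4 had 62.3, Gins1 21.4 and Gins2 13.7 in shNC replicate 1, and each was listed at 0 in shNC replicate 2. Pcna reached 130 in shNC replicate 1, of the order of Rrm1 at 138 and Mcm2, and these 3 were the highest in that library. In shNC replicate 2, Rfc3 with 165 and Rrm2 with 134 were above Pcna with 102.

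**Figure D4:**
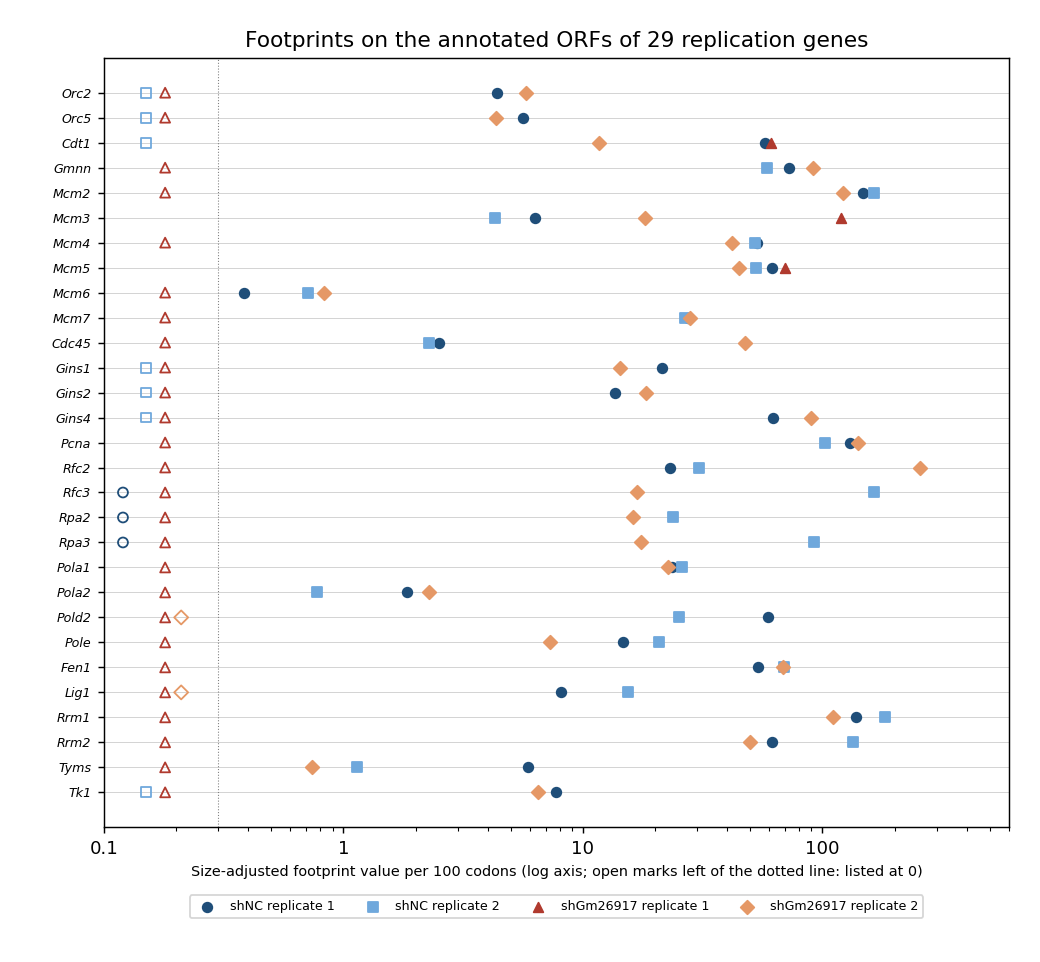
Size-adjusted footprint value per 100 codons (x axis, log scale) on the annotated ORF of 29 replication genes (y axis) in each library, with open marks left of the dotted line for ORFs listed at 0. All but 3 triangles of shGm26917 replicate 1 are open, and the other 3 libraries cover a range from Mcm6 at 0.385 to Rfc2 at 257.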

How the data were processed

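Ribosome profiling was analysed in 2 shNC and 2 shGm26917 libraries of mouse FGSCs. Members and gene lists were chosen with earlier results of these data known. The authors deposited a ratio per gene and library, translation efficiency, made from normalized Ribo-seq over normalized RNA-seq values. They deposited a size-adjusted footprint signal per ORF, with ORFs called by RiboCode. Within a library all ORF values were whole multiples of the smallest above 0, so reads were recovered. The submitters' processing notes name mm10. Aligner, counting tool and counted regions are not given in the sources used. The authors' columns of fold changes, p-values and classes were not used.

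TE was compared with limma 3.58.1 (lmFit, eBayes with trend; R 4.3.3) on log2(TE) for genes above 0 in all 4 libraries. ORFs were compared on log2(value + 1), for a value over 1 in at least 2 libraries, a scale that understates changes of low values. Adjusted p is Benjamini-Hochberg over all features tested. Alternatives were edgeR 4.0.16 and DESeq2 1.42.0 on recovered reads, other pseudocounts, filters and scalings, the replicate number as a block, and leaving out each library. The procedure was also run on simulated data, in which the TE spread was set narrower than that between the shGm26917 replicates. That run therefore does not show how the tests perform on these libraries. Log2 changes are named for Mcm2 to Mcm7, Pcna and the 12 members with the smallest p.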

Additional observations from a re-analysis of the deposited data

How the results depend on the processing

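The depth behind a TE is unknown, the libraries are 2 per group, and shGm26917 replicate 1 has the fewest ORF reads. No call of a replication gene for TE was gained by another filter, pseudocount, scaling or moderation, where the median log2 change of the list stayed between -0.30 and -0.25. A pseudocount of 0.01 moved the median of all genes to -0.12 and gave 498 genes at the study's threshold. After quantile normalization Mcm4 turned to 0.014.

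Leaving out 1 library in turn gave 0 to 583 genes called after adjustment for TE and 71 to 3472 at the study's threshold, with 0 to 5 and 0 to 19 replication genes, and a median log2 change of the list from -0.61 (without shGm26917 replicate 2) to 0.15 (without shGm26917 replicate 1). Leaving out one shGm26917 library and then the other gave opposite directions for 27 of the 44 replication genes. Of the genes named by rule with a log2 TE change, these were Mcm4 (-0.30 to 0.27), Mcm6 (-0.22 to 0.40), Pcna (-2.26 to 0.59) and Pola2 (-1.40 to 0.078). For ORFs the highest counts, over all ORFs and over replication genes, came without shGm26917 replicate 2. The lone shGm26917 library left there, replicate 1, had 7.97% of ORFs above 0. Leaving out 1 library in turn took 4669 ORFs each time, 29 of them of replication genes. For ORFs the same gave 0 to 1982 called after adjustment and 257 to 2152 at the study's threshold, with 0 to 14 and 2 to 14 replication genes.

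An alternative chosen after seeing the data left 1 shGm26917 library, which was assumed to vary like the shNC pair. This alternative took the 12347 genes above 0 in the 3 libraries other than shGm26917 replicate 1, with all 47 replication genes among them. It gave 697 genes and 3 replication genes at the study's threshold, Gins2 and Gmnn higher and Fen1 lower (log2 change -1.89), and a median of 0.14 over all 47 genes, with Mcm4 at 0.27, Pcna at 0.59 and Pola2 at 0.078. Among the 296 ORFs above 0 in all libraries, 9 were at the study's threshold. Of the 2 replication gene ORFs there, 1 was among them (Mcm3, higher). On recovered reads edgeR gave 4 of 3927 ORFs at the study's threshold, with 0 of 27 replication gene ORFs. DESeq2 gave 348 of 4669 there, with 2 of 29 replication gene ORFs, both lower (Lig1 and Pold2). After adjustment DESeq2 called 3 ORFs, with 0 replication genes.

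With the replicate number as a block, 284 of 10115 genes and 0 of 44 replication genes were at the study's threshold for TE. For ORFs these were 244 of 4669, and 2 of the 29 replication gene ORFs. The replicate block changed no call after adjustment. Same-numbered libraries deviated together with r of -0.04 over 10115 genes and -0.14 over 296 ORFs, and nothing in the labels says that numbers pair libraries. The crossed pairing was chosen after seeing the data. It put 403 of 4669 ORFs and 3 of the 29 replication gene ORFs at the study's threshold, with 0 called after adjustment.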
